A study of Mus musculus with 13 samples.

Results

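The genes that load and start the replicative DNA helicase were followed through every library as a set of 10: Mcm2, Mcm3, Mcm4, Mcm5, Mcm6, Mcm7, Mcm10, Cdc6, Cdt1 and Pcna. They were picked out by symbol from a list of names, with no threshold on any measured value, although the list itself was drawn up with earlier results of these data known. All 10 were found among the 25183 gene identifiers listed in either of the deposited count tables. Each had a single identifier in both tables, and all 10 passed the low-count filter in every comparison.

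RNA-seq of mouse small intestine gave 13 libraries in 5 groups, made to compare tissue lacking Eed or Ezh2, core subunits of Polycomb repressive complex 2, with wild type (WT). Crypts, the epithelial pockets that hold intestinal stem and Paneth cells, came from mice aged 12 weeks of C57BL/6-FVB mixed background, as WT, Eed-/- and Ezh2-/- (n = 3 each, called Eed KO and Ezh2 KO here). All crypt donors, WT included, had been given beta-naphthoflavone for 6 weeks, a compound that induces the AhCre recombinase through the Cyp1a1 promoter it carries. Organoids, which are epithelial cultures grown from crypts, were exposed to the same compound for 10 days and were either WT (n = 2, strain FVB) or Eed-/- (n = 2, strain C57BL/6-FVB). Labels of the organoids and of the crypts sequenced in run 440 name AhCre in WT and knockout alike, whereas those of the crypts in run 385 name no driver. Libraries are named by group, run (385 or 440) and number, as in Eed KO 385_1. No label says that replicate libraries stem from different mice or cultures, and a p-value here therefore measures library-to-library spread, part of which may be technical.

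Replication origins are licensed in G1 phase. The origin recognition complex, Cdc6 and Cdt1 load the ring-shaped MCM2-7 helicase onto DNA, where it stays inactive until S phase. Cdc45 and the GINS complex then join it, Mcm10 helps to activate it, and Pcna forms the sliding clamp that holds polymerases on the template. In the intestine these genes are active mainly in the dividing progenitor and stem cells of the crypt, and E2F transcription factors are known to drive many of them as cells leave G1.

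The promoters of the members were read from RefSeq (GRCm38.p6), as windows of 300 bases from 250 before to 50 after the transcript start. 9 of the 10 members matched. E2F letters were searched on both strands as TTTCCCGC, TTTCGCGC, TTTGCCGC or TTTGGCGC, and matches of different letters may overlap. 6 of the 9 matched members held at least 1 match, against 2.6% of the 27025 genes in the table. Stretches around those matches are printed to show the letters that most of the set has in common, and they draw no link to the counts below. Each reads 5' to 3' along the gene's own strand, with the matched letters in capitals and positions counted from the first transcribed base as 0.
Mcm3, chr1:20820266-20820295, minus strand, 17 to 46, within an exon: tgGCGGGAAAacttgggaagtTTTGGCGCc
Mcm5, chr8:75109317-75109406, plus strand, -192 to -103, upstream of every annotated transcript: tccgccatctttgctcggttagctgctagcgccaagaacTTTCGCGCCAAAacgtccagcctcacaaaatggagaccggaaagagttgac
Mcm6, chr1:128359745-128359834, minus strand, -129 to -40, upstream of every annotated transcript: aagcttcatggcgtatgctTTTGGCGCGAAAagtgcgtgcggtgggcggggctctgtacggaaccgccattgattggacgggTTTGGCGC
Mcm7, chr5:138172019-138172048, minus strand, -165 to -136, within an exon of a longer transcript: GCGGGAAAcagggtgtccaacccgccagga
Cdc6, chr11:98908002-98908031, plus strand, -149 to -120, within an intron of longer transcripts: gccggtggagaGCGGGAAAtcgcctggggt
Cdt1, chr8:122568035-122568064, plus strand, 20 to 49, within an exon: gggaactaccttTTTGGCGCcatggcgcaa
The Mcm5 stretch holds 2 overlapping matches on opposite strands, and the Mcm6 stretch holds 3, of which 2 overlap. Mcm7 had a second match in its window that is not printed. The letters CCAAT, read by NF-Y, were in the windows of 7 of 9 members (41.1% of all genes), and the GC box GGGCGG was also in 7 of 9 (38.2%). The letters TTTGAA, a motif of many G2 and mitosis promoters, were in that of Mcm2 alone, 1 of 9 against 20.2% of all genes. A match is a description of the letters and not a measured binding site, and binding was not measured here.

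Depth ran from 11421666 to 18300644 counts per library. Eed, the targeted gene, stood at 15.9, 25.03 and 16.3 CPM (counts scaled to library size) in Eed KO crypts against 50.04 to 60.3 in WT crypts, and Ezh2 stood at 17.7 to 21.8 in Ezh2 KO crypts against 72.1 to 95.2 in WT crypts. Mitochondrial transcripts, a rough sign of RNA quality, took 16.45% and 17.99% of counts in the Eed KO crypts of run 385 and 3.71% in that of run 440, against 8.65% to 14.5% in WT crypts. By Xist and the Y-linked Ddx3y, the WT crypts of run 385 had a male pattern (400 and 627 Ddx3y counts) and the Eed KO crypts of that run a female one (at most 1 count). In that run sex and genotype therefore cannot be told apart, while no crypt library of run 440 held a Ddx3y count. The 7 crypt stem cell markers (Lgr5, Olfm4 and others) summed to 757 to 1253 CPM in Eed KO crypts, against 4500 to 4729 in WT and 4121 to 4748 in Ezh2 KO crypts. The 7 Paneth markers summed to 20960 to 29050 CPM in Eed KO crypts, 80260 to 114800 in WT crypts and 39190 to 74110 in Ezh2 KO crypts. None of these markers was at 0, and their part in the results below was not tested. A sum is weighted to the most abundant markers. Gene by gene, log2 fold changes in Eed KO against WT crypts ran from -4.85 to 0.10 for the stem markers (5 of 7 called lower). For the Paneth markers they ran from -3.21 to -0.25 (3 of 7 called lower). Calls are by edgeR at an adjusted p under 0.05, beside 10.6% of all genes called lower. In bulk samples fewer cells of a type and less RNA per cell cannot be told apart.

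Levels of the members followed 1 broad order over the groups, with Eed KO crypts lowest for 10 of 10 genes and Ezh2 KO crypts highest for 9. The exception was Mcm4, highest in Eed KO organoids. Summed over the members, the level was 767 ± 196 CPM in Eed KO crypts (SD, n = 3), 1305 ± 163 in WT crypts (n = 3) and 1793 ± 241 in Ezh2 KO crypts (n = 3). Organoids lay between, at 1414 ± 160 for Eed KO and 1510 ± 51.9 for WT (SD, n = 2 each). Eed KO crypts were separate from the next group, with no overlap of libraries, for 6 members, and Ezh2 KO crypts were separate at the top for 4. Neighbouring groups elsewhere in the order mostly overlapped. CPM levels are not corrected for the run, whereas the fold changes below come from fits with the run as a term.

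**Figure D1:**
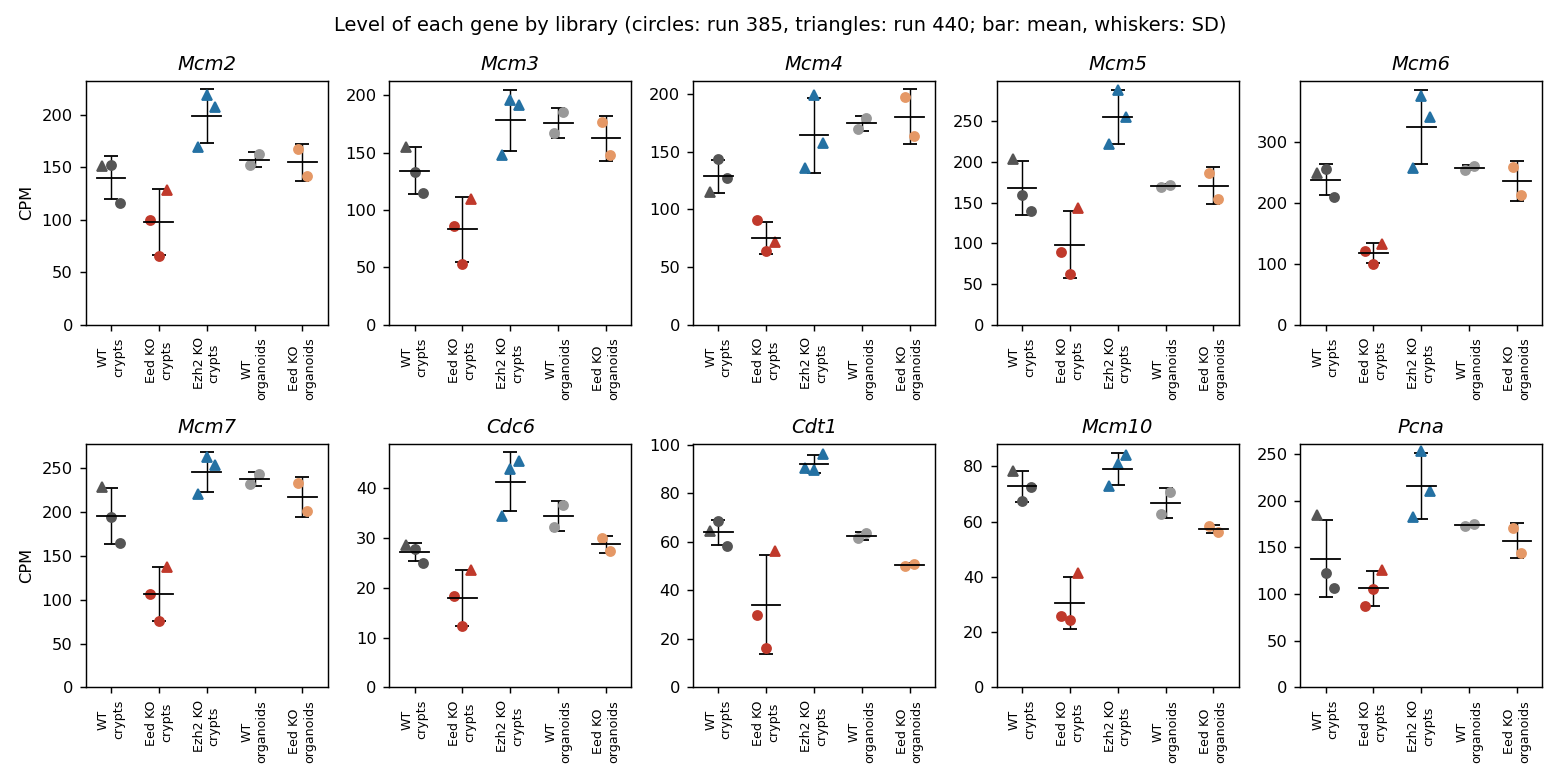
CPM of each of the 10 genes (vertical axis, linear from 0) by group (horizontal axis), with 1 point per library, circles for run 385, triangles for run 440, a bar for the mean and whiskers for the SD. Eed KO crypts are lowest in every panel, and their run 440 library is the highest of the 3 for every gene except Mcm4.

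Per kilobase of the principal transcript, the order of the genes in WT crypts ran from Pcna at 90.6 ± 27.1 CPM per kb and Mcm6 at 81.8 ± 8.64 through Mcm7, Mcm5, Mcm3, Mcm2 and Mcm4 (66.1 down to 35.8) to Cdt1 at 29.2 ± 2.36, Mcm10 at 14.97 ± 1.14 and Cdc6 at 10.6 ± 0.713 (SD, n = 3). The MCM2-7 proteins form a ring with 1 copy of each, but their transcripts were not equal: the highest of the 6 exceeded the lowest by 1.64 to 2.67 times per kb within a library. Mcm6 was the highest of the 6 in every library except Eed KO 440_1, where Mcm7 was. Neighbours from Mcm5 down to Mcm4 differed by less than the larger of their SDs. The ranks depend on the transcript length used: with all annotated exons merged, Mcm2 moved from rank 6 to rank 8 in WT crypts.

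The first comparison asked what loss of Eed did to these genes in crypts. 7 of the 10 members fell in Eed KO against WT crypts by edgeR's quasi-likelihood test (adjusted p under 0.05 over 14406 genes), and none rose. The share of all genes called lower was 10.6%. The median log2 fold change of the 10 was -0.79, against -0.04 over all genes tested. In 7 members (Mcm3, Mcm4, Mcm6, Mcm7, Mcm10, Cdc6 and Cdt1) the Eed KO and WT libraries did not overlap, against 13.3% of all genes.

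Of the helicase ring, 5 of 6 genes fell. Mcm6 (chromosome 1, 128331591 to 128359656, GRCm38, ENSMUSG00000026355) stood at 121, 99.1 and 133 CPM in Eed KO crypts 385_1, 385_2 and 440_1, against 256, 209 and 249 in the WT crypts of those names. All 3 knockout values lay far under the lowest WT value. Its log2 fold change was -1.02 ± 0.18 (SE, adjusted p = 0.00429), the most negative of the ring. Mcm7 (chromosome 5, 138164583 to 138172422, ENSMUSG00000029730) had 107, 75.9 and 138 CPM in the knockout against 194, 165 and 228, again without overlap, a log2 fold change of -0.89 ± 0.17 (adjusted p = 0.00591). Cops6 and Ap4m1 overlap Mcm7 on the other strand. The library kit keeps strand, but the sources used here do not give whether counting used it, and reads of these neighbours may be included. Mcm5 (chromosome 8, 75109528 to 75128439, ENSMUSG00000005410) had 89.1, 62.3 and 143 CPM against 160, 139 and 204. The run 440 knockout library lay just above the lowest WT library of the other run, and the log2 fold change was -0.82 ± 0.19 (adjusted p = 0.0142).

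Mcm4 (chromosome 16, 15623897 to 15637400, ENSMUSG00000022673) was the one ring member whose run 440 knockout library was not its highest, with 90.5, 63.8 and 71.8 CPM against 143, 127 and 115 in WT crypts. The groups did not overlap (log2 fold change -0.76 ± 0.19, adjusted p = 0.0203). Mcm3 (chromosome 1, 20802974 to 20820278 in the run 385 table, ENSMUSG00000041859) had 86.1, 53.2 and 110 CPM against 133, 115 and 155. Its groups were separate by a few CPM only, with a log2 fold change of -0.71 ± 0.21 (adjusted p = 0.0374). Mcm2 (chromosome 6, 88883475 to 88898780, ENSMUSG00000002870) did not pass, with 99.2, 65.7 and 128 CPM against 152, 116 and 151. Here the knockout library of run 440 lay above WT 385_2, and the log2 fold change was -0.54 ± 0.21 (adjusted p = 0.0943), an interval of -1.02 to -0.07 before adjustment.

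Of the loaders, Cdt1 fell and Cdc6 did not pass. Cdt1 (chromosome 8, 122568015 to 122573128, ENSMUSG00000006585), which brings the MCM ring to origins, had 29.9 and 16.1 CPM in the Eed KO crypts of run 385 against 68.7 and 58.4 in WT. In run 440 it had 56.3 CPM in Eed KO and 64.5 in WT, so the gap was wider in run 385. The log2 fold change over both runs was -1.03 ± 0.30 (adjusted p = 0.0368), with the largest SE of the 10 genes. Cdt1 overlaps the annotated readthrough gene Gm20388 on the same strand, so its counts may be split. Cdc6 (chromosome 11, 98907801 to 98923940, ENSMUSG00000017499), the ATPase that recruits Cdt1 and MCM, had 18.3, 12.3 and 23.5 CPM against 27.7, 25.02 and 28.5. Its libraries did not overlap, yet the log2 fold change of -0.61 ± 0.21 did not pass (adjusted p = 0.0640).

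Mcm10 and Pcna, which act after licensing, were the extremes of the set. Mcm10 (chromosome 2, 4989714 to 5012791, ENSMUSG00000026669) had 25.7, 24.4 and 41.3 CPM in Eed KO against 67.4, 72.7 and 78.5 in WT crypts. The highest knockout library stood well under the lowest WT library, and the log2 fold change was -1.29 ± 0.15 (adjusted p = 0.000709), 0.409 of the WT level. Pcna (chromosome 2, 132249162 to 132253314, ENSMUSG00000027342) had 87.4, 105 and 125 CPM against 122, 106 and 184. These groups overlapped, and the log2 fold change was -0.34 ± 0.17 (adjusted p = 0.182). The annotation lists the processed copies Pcna-ps1 and Pcna-ps2, with which reads of Pcna may be shared. Pcna took 11.6%, 18.2% and 12.9% of the members' summed CPM in Eed KO crypts 385_1, 385_2 and 440_1. In the WT crypts of those names it took 9.24%, 9.37% and 12.6%, so these ranges overlapped.

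**Figure D2:**
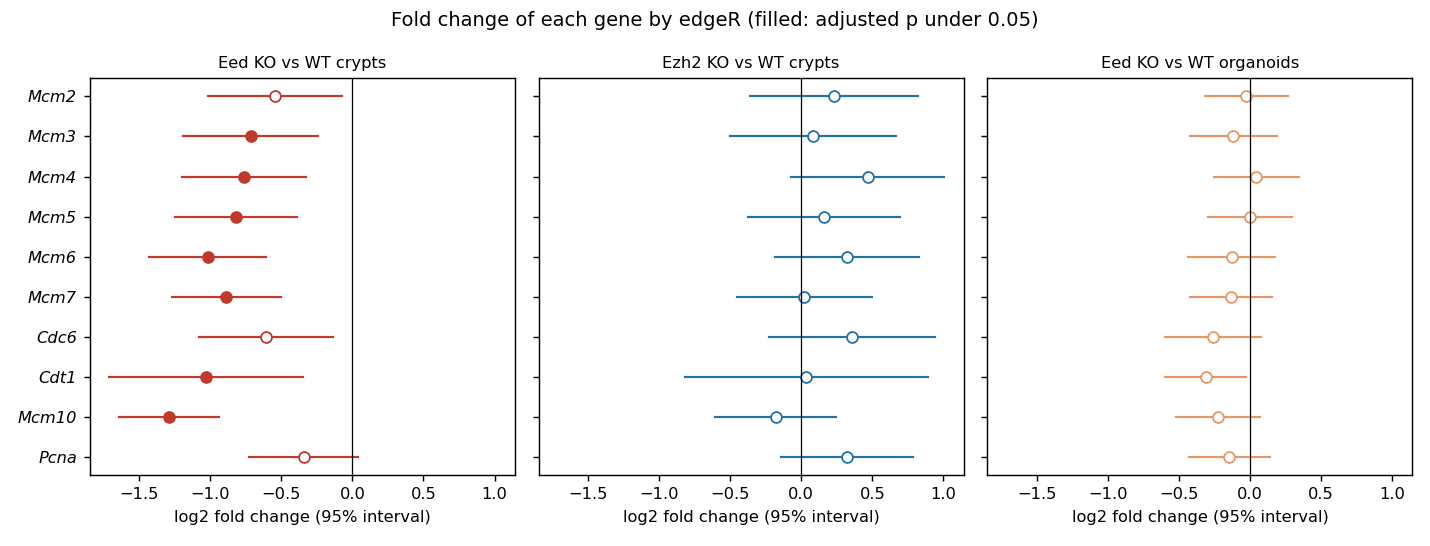
Log2 fold change of each gene (horizontal axis) with its 95% interval as a line, for Eed KO against WT crypts, Ezh2 KO against WT crypts and Eed KO against WT organoids. Filled points have an adjusted p under 0.05: 7 in the first panel and none in the others.

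Both runs held WT and Eed KO crypts, so the difference could be read within each. Measured against WT of its own run, each of the 3 Eed KO libraries was below WT for 10 of 10 members, with median log2 ratios of -0.66 in 385_1, -1.23 in 385_2 and -0.53 in 440_1. Eed KO 385_2 was the lowest of all 13 libraries for 9 members, and Eed KO 385_1 for Pcna. Within run 385 the log2 ratio of group means ran from -0.25 for Pcna to -1.48 for Mcm10, with Cdt1 at -1.46. Within run 440 (1 library each) it ran from -0.20 for Cdt1 to -0.92 for Mcm10, with Mcm6 at -0.91. The difference between runs was tested as an interaction, an alternative chosen after the data were seen, and no member passed (1.46% of all genes did). It was positive, a smaller fall in run 440, for 9 of 10 members, with a median of 0.39 against -0.15 over all genes, and largest for Cdt1 at 1.26 ± 0.44 (adjusted p = 0.143).

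The number of members called depended on the fit. The replicate numbers pair Eed KO and WT crypts by run and number, and with that pairing as a block, and without the Ezh2 KO libraries, 3 members passed (Mcm6, Mcm7 and Mcm10), while Mcm3, Mcm4, Mcm5 and Cdt1 did not (adjusted p from 0.0534 to 0.123). When those libraries were dropped but no block was used, 5 passed. Run 385 alone gave 8 calls. Run 440 alone gave 0, but it holds 1 Eed KO and 1 WT crypt library, whose spread was assumed to be that of the Ezh2 KO libraries, so that count says little. Leaving out Eed KO 385_1, Eed KO 385_2 or WT 385_2 left 4 calls and leaving out WT 385_1 left 3, whereas 9 passed without Eed KO 440_1.

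**Figure D3:**
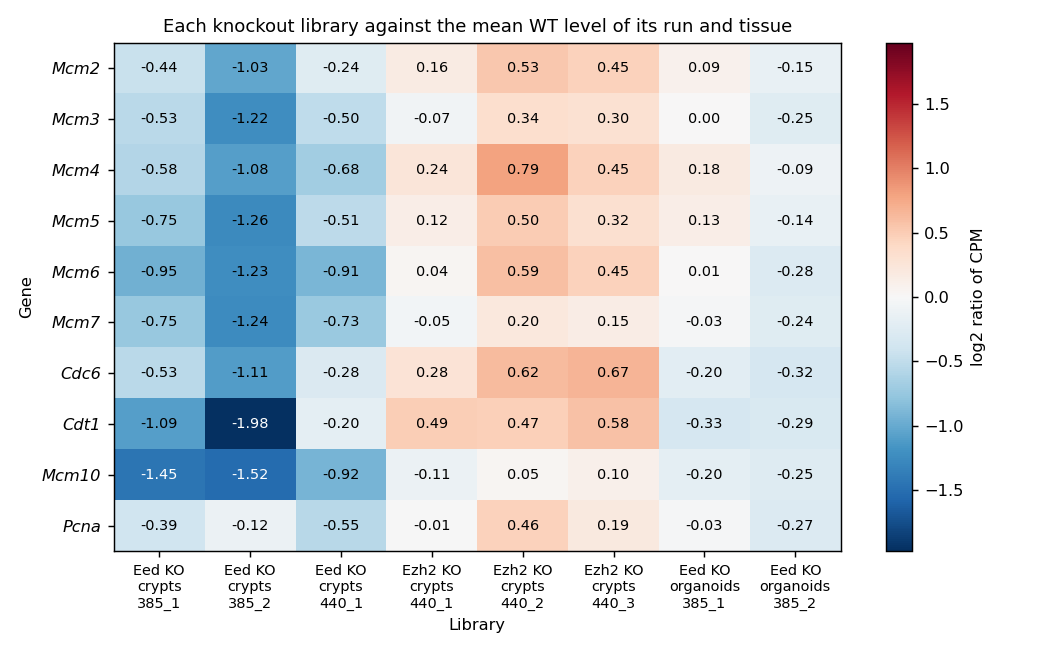
Log2 ratio of CPM of each knockout library to the mean WT level of its own run and tissue (columns are libraries, rows are genes, colour and number give the ratio). The 3 Eed KO crypt columns are negative in every row, Ezh2 KO 440_2 and 440_3 are positive in every row, and the organoid columns run from -0.33 to 0.18.

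Loss of Ezh2, the catalytic subunit, was asked about in the same crypt fit, which shares its WT libraries with the comparison above. No member was called, with 0% of all genes called higher and 0.0208% lower (3 genes). At an unadjusted p under 0.05 there were 0 members and 1179 of all genes, and DESeq2 called 0 members. 9 of the 10 log2 fold changes were positive, with a median of 0.19 against 0.01 over all genes. They ran from -0.18 ± 0.19 for Mcm10 (adjusted p = 0.796) to 0.47 ± 0.24 for Mcm4 (adjusted p = 0.625, interval -0.07 to 1.01).

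By CPM the Ezh2 KO crypts stood high. Mcm2 had 169.6, 218 and 207 CPM in Ezh2 KO 440_1, 440_2 and 440_3 against at most 152 in WT crypts, and Mcm5 had 222, 288 and 255 against at most 204. Cdt1 was the tightest, at 90.4, 89.5 and 96.3 CPM, all above the WT maximum of 68.7. For these 3 genes with Cdc6 and Mcm6, the Ezh2 KO libraries did not overlap the WT libraries, 5 members against 10.6% of all genes. Ezh2 KO crypts were sequenced in run 440 only, where 1 WT library stands beside them. Without that library, WT 440_1, the median of the members turned to -0.10, and the log2 fold change of Cdt1 went from 0.03 to -0.76.

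Set directly against each other, Eed KO crypts were lower than Ezh2 KO crypts for 6 members: Mcm4, Mcm5, Mcm6, Mcm7, Cdc6 and Mcm10. The share of all genes called lower was 8.05%. Mcm6 had the largest difference, -1.34 ± 0.23 on the log2 scale (adjusted p = 0.00513), followed by Mcm4 at -1.23 ± 0.24 (adjusted p = 0.00923) and Mcm10 at -1.11 ± 0.19 (adjusted p = 0.00503). The other 4 members lay between -0.67 (Pcna) and -1.07 (Cdt1) with adjusted p from 0.0564 to 0.0642. The libraries of the groups did not overlap for 10 of 10 members, against 19.5% of all genes. All 10 passed without the run term, by DESeq2 and without Eed KO 385_2, whereas 3 passed without Ezh2 KO 440_2. The overlap of CPM and the fit without the run term also carry any difference between runs. Ezh2 KO crypts are in run 440 only, where Eed KO 440_1 alone stands beside them.

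In organoids the same gene was deleted in culture, where immune markers summed to at most 2.87 CPM with the T cell markers Cd3e and Cd3g at 0. No member was called in Eed KO against WT organoids by edgeR over 12958 genes, with 4.63% of all genes called lower. DESeq2 also called 0, and 1 member (Cdt1) had an unadjusted p under 0.05. 9 of the 10 log2 fold changes were negative, with a median of -0.13 against -0.005 over all genes. Strain labels differ between these groups, and by Ddx3y the Eed KO organoids had a male and the WT organoids a female pattern, so genotype, strain and sex cannot be told apart here.

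The log2 fold changes of the ring genes ran from -0.13 to 0.04 in organoids. Mcm6 had 259 and 212 CPM in Eed KO organoids 385_1 and 385_2 against 254 and 260.1 in WT, a log2 fold change of -0.13 with an interval of -0.44 to 0.18. Mcm4 had 197 and 164 against 170.1 and 179, so that the WT values lay between the knockout values (0.04, interval -0.26 to 0.34). Mcm5 had 186 and 155 against 169.5 and 172, and its log2 fold change was -0.00 with an interval of -0.30 to 0.29. Across the 6 ring genes the lowest bound of an interval was -0.44.

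Cdt1, Cdc6, Mcm10 and Pcna were lower in both knockout organoid libraries than in either WT library, 4 members against 27.9% of all genes. Cdt1 had 49.9 and 51.0 CPM against 61.4 and 63.7, a log2 fold change of -0.31 ± 0.12 (adjusted p = 0.131, interval -0.60 to -0.03). Cdc6 had 29.9 and 27.4 against 32.2 and 36.5 (-0.26 ± 0.14, adjusted p = 0.275). Mcm10 had 58.3 and 56.2 against 62.97 and 70.7 (-0.23 ± 0.13, adjusted p = 0.289), and Pcna had 170.3 and 144 against 172 and 175 (-0.15 ± 0.12, adjusted p = 0.482). Eed KO 385_1 came within a few CPM of WT for Pcna and Cdc6.

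Whether the Eed effect differed between organoids and crypts was tested by an interaction term fitted to all 13 libraries (14761 genes). Only Mcm10 passed among the members, with a difference of 1.07 ± 0.22 on the log2 scale (interval 0.60 to 1.55, adjusted p = 0.0217), and 2.99% of all genes were called in that direction. All 10 differences were positive, that is, less negative in organoids, with a median of 0.74 against 0.14 over all genes. The ring genes lay between 0.52 (Mcm2) and 0.90 (Mcm6, adjusted p = 0.0839), Cdt1 at 0.72, Cdc6 at 0.35 and Pcna at 0.21. For 9 members the effect in crypts was thus not shown to differ from that in organoids. By Ddx3y, Eed KO had a female pattern in run 385 crypts and a male one in organoids, with WT the reverse. Strain labels differed between WT and Eed KO in organoids only. The interaction therefore cannot tell a difference in the effect of Eed loss from one of sex or strain. The call of Mcm10 was lost without any 1 of Eed KO crypts 385_1 or 385_2, WT crypts 385_1 or 385_2, or the 4 organoid libraries, where no member passed, and 3 members passed without Eed KO crypt 440_1.

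WT organoids were also set against WT crypts. Pcna alone was called higher in organoids (0.55 ± 0.18, adjusted p = 0.0411), with 172 and 175 CPM against 122, 106 and 184, and 9.17% of all genes were called higher. The WT crypt of run 440 was above both organoid libraries, which were sequenced in run 385. All 10 members had positive values, with a median of 0.35 against -0.13 over all genes, and the next largest were Mcm3 at 0.56 and Cdc6 at 0.46. Libraries did not overlap for Cdc6, Mcm4, Mcm7 and Mcm3, 4 members against 22.2% of all genes. The call of Pcna was lost without the low-count filter, and between 0 and 4 members passed as single libraries were left out (0 without WT crypt 385_2 or any 1 organoid library). WT organoids and WT crypts also differ in strain label. By Ddx3y the WT organoids had a female pattern and the WT crypts of run 385 a male one, while the WT crypt of run 440 held no Ddx3y count. A difference between culture and tissue therefore cannot be told from one of strain, or within run 385 from one of sex.

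Genes that work with the members were read from lists of the same pathway in Eed KO against WT crypts. Over 7 replication lists, 48 of 65 tested genes fell and 1 rose, with a median log2 fold change of -0.91, beside the 10.6% of all genes called lower. Without the Ezh2 KO libraries 41 fell, and 29 when the replicate block was also added. In run 440 alone, with 1 library a group and the spread taken from the Ezh2 KO libraries, 8 fell, and with single libraries left out 36 to 49 did. Of the origin recognition complex, which marks origins throughout the cell cycle, 1 of 6 fell, Orc1 (-1.04 ± 0.20, adjusted p = 0.00608), and Orc2 to Orc6 had values from -0.17 to -0.55. Of the other MCM-related and licensing control genes (the licensing list) 5 of 7 fell. Among them were Dtl (-1.22 ± 0.15), which targets Cdt1 for destruction, Skp2 (-0.68) and the MCM-related Mcm9 (-0.65). Gmnn, which encodes the Cdt1 inhibitor geminin, also fell, from 34.3 ± 1.01 CPM in WT to 17.1 ± 1.81 in Eed KO crypts (SD, n = 3 each, adjusted p = 0.00177).

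Of the Cdc45 and GINS genes, whose products complete the active helicase, 4 of 5 fell: Gins1 (-1.36 ± 0.18), Cdc45 (-1.07 ± 0.21), Gins2 (-0.98 ± 0.15) and Gins3 (-0.91). 6 of 7 firing factors fell, with Ticrr at -1.37, Dbf4, the activator of the Cdc7 kinase, at -1.15, Topbp1 at -1.12 and Mtbp at -0.87. Among polymerases, clamp loaders and fork proteins 22 of 28 fell, led by adjusted p by Dna2 (-1.30), Chtf18 (-1.52), Prim1 (-1.24) and Clspn (-1.55). Pold4, the small subunit of polymerase delta, was the exception and rose by 0.97 ± 0.18 (adjusted p = 0.00451). Its level was 19.2 ± 3.47 CPM in Eed KO crypts and 9.78 ± 1.30 in WT crypts (SD, n = 3 each).

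Nucleotide supply genes fell in 5 of 6 cases, including Tk1 (-1.66 ± 0.19, adjusted p = 0.000561), Rrm1 (-0.96) and Tyms (-0.52). Of the genes of replication-coupled chromatin 5 of 6 fell, among them Uhrf1 (-1.17), which guides maintenance methylation, Slbp (-0.75), which binds histone mRNA, and the histone chaperone subunits Chaf1a (-0.99) and Chaf1b (-0.89). G2 and mitosis genes fell in 18 of 20 cases with a median of -1.47, the most negative of these lists, as in Ccna2 (-1.58 ± 0.13), Birc5 (-1.57), Ccnb1 (-1.42) and Tpx2 (-1.29). The G1 and E2F list was mixed, with 9 of 19 lower, such as the pocket protein genes Rbl1 (-1.39) and Rbl2 (-0.79), and 3 higher. Those 3 were the D-type cyclins, which start the passage out of G1: Ccnd2 (2.09 ± 0.28), Ccnd3 (1.26 ± 0.18) and Ccnd1 (1.14 ± 0.20). Over all genes tested, 1932 of 14406 were called higher, a share near that of the 3 of 19. Ccnd2 stood at 1796 ± 271 CPM in Eed KO crypts and 435 ± 150.2 in WT crypts. Without the Ezh2 KO libraries the lower calls were 3 for the licensing, 5 for the firing, 4 for the nucleotide, 4 for the chromatin and 7 for the G1 and E2F list. With the replicate block added to that fit they were 2, 3, 3, 2 and 3 in the same order. Leaving out any 1 WT or Eed KO crypt of run 385 left 2 or 3 licensing and 3 nucleotide genes, and 3 of the latter also passed without Ezh2 KO 440_3. The chromatin list kept 3 calls without Eed KO 385_1 and 2 without WT 385_1, the G1 and E2F list 5 without Eed KO 385_1, and the origin recognition complex had 2 without Eed KO 385_2.

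**Figure D4:**
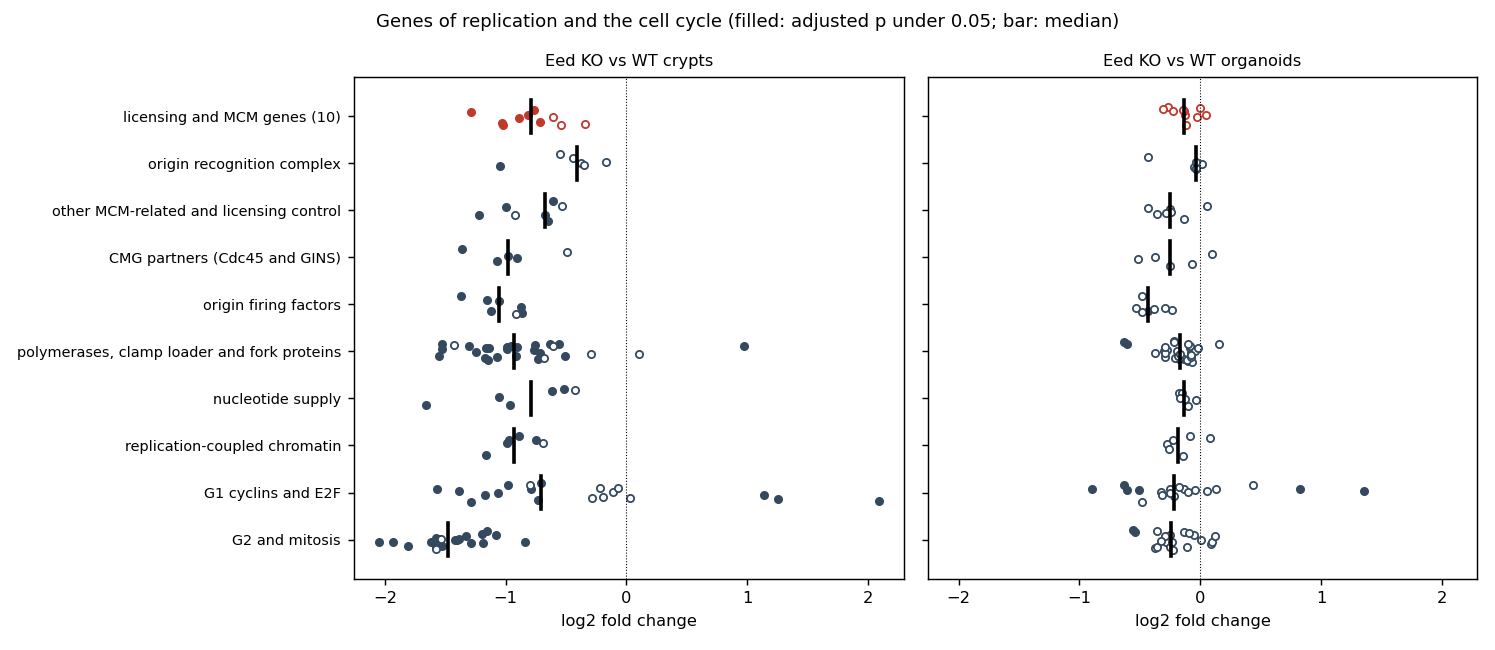
Log2 fold change (horizontal axis) of every tested gene of the members and 9 related lists (rows), in Eed KO against WT crypts (left) and organoids (right), with filled points for an adjusted p under 0.05 and a bar for the median. Crypt medians run from -0.41 to -1.47 and organoid medians from -0.04 to -0.44. Most organoid points lie below 0, and the G1 list spreads the widest there, from -0.90 to 1.36.

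The same lists were read in the other comparisons. In organoids 3 of the 65 replication genes were called lower and none higher, with a median of -0.17 against -0.005 over all genes. That count is near the 4.63% of all genes called lower there. The 3 were Dbf4 (-0.44), Dna2 (-0.63) and Pola2 (-0.61), the last named after its value was seen. Most values of each of the 7 lists were negative in organoids, from 4 of 5 Cdc45 and GINS genes to 7 of 7 firing factors. Ccnd2 and Ccnd1 rose there too, by 1.36 ± 0.15 and 0.82 ± 0.15. Of the G1 and E2F list 2 of 19 were called higher and 4 lower in organoids. Of the G2 and mitosis list 2 of 20 were called lower and 0 higher. Over all genes tested in organoids, 1752 of 12958 were called higher and 600 lower. In Ezh2 KO against WT crypts 0 of the 65 were called, beside 0% of all genes called higher and 0.0208% lower, and their median was 0.10. Between Eed KO and Ezh2 KO crypts 48 were lower in Eed KO and 1 was higher, with a median of -1.01, beside 8.05% of all genes called lower. As these comparisons share libraries, their values are given side by side only.

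In promoters of the related lists the E2F letters were found in 8 of 24 matched genes of the polymerase and fork list. They were in 3 of 6 of the licensing list, 2 of 6 of the origin recognition complex and 1 of 2 of the Cdc45 and GINS genes. Of firing factors 1 of 5 held them, as did 2 of 6 of the chromatin list. In the G1 and E2F list it was 5 of 13, beside the 2.6% of all genes. Of the matched G2 and mitosis genes 1 of 16 held them, and of the nucleotide supply genes 0 of 5. Among members, Mcm2, Mcm10 and Pcna had no match in their windows. A link between these letters and the fold changes was not tested.

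The genes whose pattern was most like that of the members were found over all 13 libraries, by the root mean square difference between a gene's log2 CPM and the members' mean, each centred on its own mean. The 5 nearest genes outside the set were Pmf1, a kinetochore subunit, at 0.0993, Chaf1b at 0.111, Rfc5, a clamp loader subunit, at 0.118, Chaf1a at 0.130 and Lig1, the replicative DNA ligase, at 0.139. Chaf1b shows the shape, with 23.5 ± 7.91 CPM in Eed KO crypts, 43.0 ± 6.85 in WT crypts and 53.4 ± 8.34 in Ezh2 KO crypts (SD, n = 3 each). Among the members, which formed that mean and so lie near it by construction, Mcm7 (0.0904) and Cdc6 (0.0939) were closest. Cdt1 (0.273), Mcm4 (0.266), Pcna (0.248) and Mcm10 (0.205) were the least alike. These distances are a description over libraries that share runs and groups.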

How the data were processed

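RNA extracted with TRIzol was turned into stranded mRNA libraries, per the labels' protocols. Raw counts of reads on each gene were deposited, 1 table for either sequencing run (23969 and 22634 genes, 21420 shared), per the file headers. The submitters' processing notes name GRCm38, HTSeq, DESeq2, Bowtie 0.12.9 and TopHat2 2.0.12 but not what each was used for. Shared identifiers held at least 99.8% of the counts of each library. No 2 libraries of a group agreed within sampling noise.

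Fold changes, SE and p-values come from edgeR 4.0.16 (quasi-likelihood F test, TMM, minimum count 10 and minimum total 15, Benjamini-Hochberg threshold 0.05) in R 4.3.3. The 9 crypt libraries were fitted together with the run as a term, the 4 organoid libraries alone, and all 13 for the interaction and for WT organoids against crypts. Levels are CPM on TMM library sizes. In simulated counts of 14406 genes for Eed KO against WT crypts, 49 of 100 genes changed 2-fold and 4 of 100 changed 1.5-fold were recovered, with 0 false calls. Only 200 genes were changed in that simulation, whereas 1932 were called higher and 1531 lower in the data. As the adjusted threshold is stricter when fewer genes change, these counts do not give the recovery in the data.

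The members, lists and tests were chosen with earlier results of these data known. All members are named. From each list, up to 4 genes with the smallest adjusted p in Eed KO against WT crypts are named, with any that passed against the list's direction, and the 5 genes most like the members. Some genes that this rule would name are not reported here. Marker lists of stem, Paneth, goblet, enterocyte, enteroendocrine, tuft, immune, mesenchymal and epithelial cells were read as summed CPM. Deviations of same-numbered Eed KO and WT crypts correlated by 0.166, 0.36 and 0.329, which was taken as pairing, although the number includes the run and Eed KO 385_1 correlated more with WT 385_2 (0.35). Alternatives were DESeq2 1.42.0, its size factors, no low-count filter, no mitochondrial genes, single libraries left out, single runs, no run term and the replicate block. Symbols come from GENCODE M21 and promoters from RefSeq. Sequences of the Mcm4 promoter and of proteins were not used here.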

Additional observations from a re-analysis of the deposited data

Results flagged for a closer look

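The Mcm10 difference between Eed KO and WT was less negative in organoids than in crypts, by 1.07 on the log2 scale in the interaction test (SE 0.22, adjusted p = 0.0217 by edgeR). Sex by Ddx3y and strain labels differ along with it, so an effect of Eed loss cannot be told from these. Mcm10 was lower in each of the 3 Eed KO crypt libraries and in each of the 2 Eed KO organoid libraries than in WT of the same tissue. Over 18 alternatives its difference ran from 0.94 to 1.26, with adjusted p from 0.000484 to 0.129, and it did not pass in 8 of them. No group held the 4 libraries that a search for a single outlying library needs.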

How the results depend on the processing

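For Eed KO against WT crypts, where 7 members were called lower, 3 passed with the replicate block and without the Ezh2 KO libraries, 0 in run 440 alone (1 library a group), and 3 to 9 with single libraries left out. In Eed KO against Ezh2 KO crypts (6 called) it was 10 by DESeq2, 10 without the run term and 3 to 10 with single libraries left out. For organoids (0 called), the replicate block, where 2 pairs share only a number, gave 1. Of the interaction (1 called), DESeq2 gave 2, run 385 alone 3 and single omissions 0 to 3. For WT organoids against crypts (1 called), no filter gave 0, DESeq2 3 and single omissions 0 to 4. The cause was not tested, though fewer libraries are part of most of these settings.

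No log2 fold change of a member turned its sign in Eed KO against WT crypts (170 checks), Eed KO against Ezh2 KO crypts (150) or the interaction (180). In Ezh2 KO against WT crypts, leaving out single libraries moved Mcm2 between -0.073 and 0.44, Mcm3 between -0.14 and 0.24, Mcm5 between -0.15 and 0.37, Mcm7 between -0.14 and 0.15, Cdt1 between -0.76 and 0.56 and Mcm10 between -0.55 and 0.058. Mcm10 was 0.058 in run 440 alone and 0.12 without the run term. In organoids the same omissions moved Mcm2 between -0.14 and 0.078, Mcm4 between -0.084 and 0.16 and Mcm5 between -0.13 and 0.12. In WT organoids against crypts Cdt1 ran from -0.022 to 0.49 and Mcm10 from -0.068 to 0.21, and run 385 alone gave -0.023 and -0.068. None of these members was called in those comparisons. Groups of 2 or 3 libraries and the depth limit these tests, and which does so more was not tested.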
